A study of Mus musculus with 40 samples.

Results

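The genes described here encode proteins that bring fatty acids into liver cells or free them from lipoproteins at the cell surface. They are the receptor gene Cd36, the transporter genes Slc27a1, Slc27a2, Slc27a4 and Slc27a5, the lipoprotein receptor gene Vldlr, and the lipase genes Lpl and Lipc. They were taken by gene symbol, which made 8 of the 21448 genes in the count table and 16 of its 30146 probes. Each gene was followed on the probe that had the most reads over all libraries, and its other probes served as a check. The choice was by symbol, made with earlier results of these data known, and all 16 probes passed the filter on low counts.

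The livers came from wildtype Crl:CD1(ICR) mice of both sexes, an outbred stock, that received GenX in water by oral gavage for 90 days. GenX is a perfluorinated ether acid used as a replacement for perfluorooctanoic acid. Males and females each had a control group at 0 mg/kg bw/d, dosed with deionized water without GenX. The other groups were dosed daily with GenX at 5, 0.5 or 0.1 mg/kg. From each larger group of the study, the first 5 mice by animal number were sequenced. All mice, controls included, were housed singly on the same diet, and the age at the start is not given in the sources used here. RNA was read from formalin-fixed, paraffin-embedded liver sections with TempO-Seq, an assay in which neighbouring probes on an RNA are joined, amplified and counted. The comparisons ask how the genes of fatty acid uptake differed between treated and control mice of the same sex, and whether the sexes differed in this.

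Long-chain fatty acids reach hepatocytes as free acids carried by albumin and as triglycerides in lipoproteins. CD36 is a scavenger receptor that binds long-chain fatty acids at the plasma membrane, and the SLC27A proteins take up fatty acids and join them to coenzyme A. VLDLR binds triglyceride-rich lipoproteins, LPL hydrolyses their triglycerides on the vessel wall, and LIPC, the hepatic lipase, acts on remnant particles and high-density lipoproteins in the liver. Several of these genes are known targets of PPARα, a nuclear receptor for fatty acids that binds DNA as a dimer with RXR.

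On the GRCm38 build (GENCODE vM21), Cd36 spans chr5:17781690-17888801 on the minus strand, Slc27a2 chr2:126552407-126588243 and Slc27a4 chr2:29802634-29817522 on the plus strand, Slc27a5 chr7:12988346-12998192 on the minus strand, and Slc27a1 chr8:71568882-71587302 on the plus strand. Vldlr spans chr19:27216484-27254231 and Lpl chr8:68880491-68907448, both on the plus strand, and Lipc spans chr9:70798128-70952226 on the minus strand. RefSeq promoter windows (GRCm38.p6) were matched by symbol for 6 of the 8 genes, 10 windows in all, and the 250 bases before each start were searched on both strands for AGGTCA, the hexamer bound by nuclear receptors, and for AGGTCANAGGTCA, in which this hexamer stands as a direct repeat spaced by a single base. The hexamer occurred in 3 of the 10 windows, 1 each of Cd36, Slc27a2 and Lipc, and in 14.02% of all 32851 windows. The spaced repeat was in none of the 10 and in 0.0335% of all windows. Shown here are the windows of Cd36, which rose in both sexes and in males at 0.5 mg/kg too, of Slc27a4, which rose in both sexes and holds no hexamer, and of the downstream Lipc start, whose window holds the hexamer on each strand. They run 5′ to 3′ on the strand of the gene and end just before the start, and capitals mark the hexamer or its reverse complement.
Cd36, chr5:17835897-17836146, minus strand: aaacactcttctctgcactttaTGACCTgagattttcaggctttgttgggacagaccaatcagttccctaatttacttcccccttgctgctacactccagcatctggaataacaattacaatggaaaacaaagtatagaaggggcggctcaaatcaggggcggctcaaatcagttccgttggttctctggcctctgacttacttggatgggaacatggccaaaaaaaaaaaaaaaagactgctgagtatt
Slc27a4, chr2:29802384-29802633, plus strand: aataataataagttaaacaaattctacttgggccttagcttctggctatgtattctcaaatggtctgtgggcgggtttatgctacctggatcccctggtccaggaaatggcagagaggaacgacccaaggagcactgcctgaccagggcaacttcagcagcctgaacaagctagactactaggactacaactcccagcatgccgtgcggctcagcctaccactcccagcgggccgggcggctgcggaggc
Lipc, downstream start, chr9:70934809-70935058, minus strand: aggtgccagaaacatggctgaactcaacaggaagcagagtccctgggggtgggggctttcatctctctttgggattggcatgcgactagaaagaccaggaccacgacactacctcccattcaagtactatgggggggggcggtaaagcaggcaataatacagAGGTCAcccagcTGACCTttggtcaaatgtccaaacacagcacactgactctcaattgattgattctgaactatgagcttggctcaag
The Cd36 start used here lies within the gene span given above, not at its 5′ end. In the Cd36 window the hexamer began 228 bases before that start. In the window of Lipc the hexamer on the gene's own strand began 88 bases before the downstream start. A match describes these letters and is not evidence that a factor binds there.

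After the library of mouse 355 was left out for its depth, 39 libraries with 10341341 to 15562253 reads remained, and the group of females at 0.5 mg/kg had 4 mice. Low counts in a library gathered at multiples of 20.8 to 49.8 reads, so a library stood for an estimated 287244 to 656743 counted molecules. This estimate moved with dose in males, from 287244 to 369995 in controls and 483008 to 656743 at 5 mg/kg, while females at 5 mg/kg had 306232 to 339820 against 307766 to 521441 in their controls. Transcripts of 4 Y-linked genes were at 0 in every female library and above 0 in every male library. Of the hepatocyte markers, 6 were in the table and none of them was at 0 throughout a group. Levels are given as CPM, which are counts per 1000000 reads of a library after TMM scaling, changes as log2 fold changes from the edgeR quasi-likelihood test with their SE, and p-values are adjusted by Benjamini-Hochberg over the 17877 probes tested. A gene is called changed at an adjusted p below 0.1. The median log2 fold change of all 12412 genes was 0.11 in males at 5 mg/kg with TMM and 0.04 with DESeq2's size factors, and changes in that group are to be read against it.

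At 5 mg/kg, 6 of the 8 genes changed in males, 4 of them upward and 2 downward. Over all 12412 genes tested on their most counted probe, 9.34% were called in males at this dose, 5.58% upward and 3.75% downward. Cd36, Slc27a1, Slc27a4 and Vldlr rose, and Slc27a5 and Lipc fell. In these 6 genes no treated male overlapped with any control male, which held for 9.31% of all genes. In females at 5 mg/kg, 4 of the 8 genes changed, with Cd36, Slc27a1 and Slc27a4 higher and Slc27a5 lower. The background there was 4.09% called, 2.09% upward and 2% downward. Treated and control females did not overlap for 4 of the 8 genes, Cd36, Slc27a1, Slc27a4 and Lpl, against 3.71% of all genes. The median log2 fold change of the 8 genes at 5 mg/kg was 1.65 in males and 0.80 in females, beside 0.11 and -0.01 over all genes. With mouse 355 kept in the fit, the calls in males were 4, without Slc27a1 (edgeR adjusted p = 0.101) and Slc27a5 (edgeR adjusted p = 0.172). In females 1 call, that of Cd36, was left, without Slc27a1, Slc27a4 and Slc27a5 (edgeR adjusted p = 0.132, 0.1215 and 0.435).

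At 0.5 mg/kg, 2 of the 8 genes changed in males, Cd36 upward and Lipc downward, where 2.61% of all genes were called. These same genes were the 2 of 8 whose males did not overlap with controls, against 3.61% of all genes. In females at 0.5 mg/kg edgeR called none of the 8, and 0.201% of all genes. There, 2 of the 8 had an unadjusted p below 0.05 and DESeq2 called 0, while 2 of the 8, Slc27a4 and Lpl, did not overlap with controls, against 1.82% of all genes. At 0.1 mg/kg edgeR called 0 of the 8 in males, where 0.0403% of all genes were called, and 0 of the 8 in females, where 0% were called. None of the 8 had an unadjusted p below 0.05 in males and 1 had in females, and DESeq2 called 0 in males and 1 in females. That gene was Lpl, which had no read in any of the 5 females at 0.1 mg/kg and at most 19 reads in a control female, so no fold is given.

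**Figure D1:**
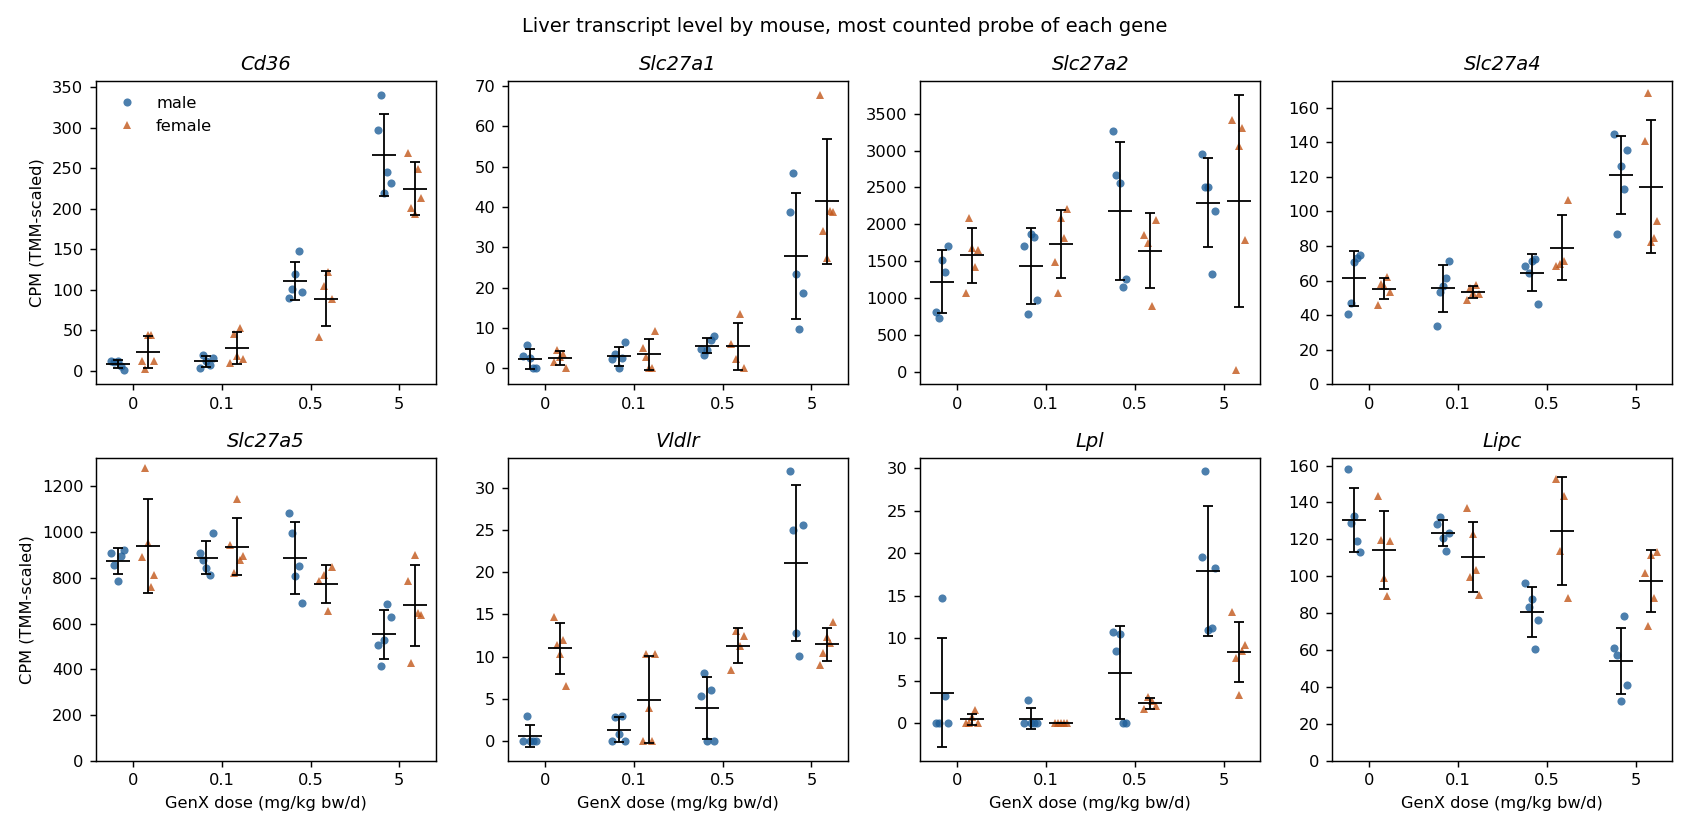
Level of each gene by mouse, as CPM after TMM scaling on a linear axis, against GenX dose in mg/kg bw/d. Circles are males and triangles females, bars give the mean ± SD of 5 mice (4 females at 0.5 mg/kg), and each panel has its own scale; Cd36 climbs in both sexes, control males lie near 0 for Vldlr, and 1 female at 5 mg/kg lies near 0 for Slc27a2.

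Cd36 rose with dose in both sexes and was the only one of the 8 to rise in males at 0.5 mg/kg on its most counted probe. Control males had 11.3, 10.8, 11.3, 6.19 and 0.181 CPM. Males at 0.5 mg/kg had 89.0, 100.6, 119, 147 and 97.3 CPM. Males at 5 mg/kg had 297, 340.5, 219, 245 and 232 CPM. Every male at 0.5 mg/kg lay above every control, and every male at 5 mg/kg above every male at 0.5 mg/kg. The log2 fold change was 3.79 ± 0.56 at 0.5 mg/kg (edgeR adjusted p = 9.01e-06) and 5.06 ± 0.59 at 5 mg/kg (edgeR adjusted p = 6.23e-09), a 33.4-fold higher level. At 0.1 mg/kg males had 11.4 ± 6.701 CPM (SD, n = 5) against 7.96 ± 4.85 CPM in controls. The step from 0.5 to 5 mg/kg, 1.27 ± 0.50, did not pass (edgeR adjusted p = 0.273).

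Control females spread widely for Cd36, with 12.3, 1.97, 43.6, 43.3 and 11.4 CPM. Females at 0.5 mg/kg had 41.6, 104, 122 and 88.2 CPM, of which 3 of 4 lay above every control. Females at 5 mg/kg had 268, 200.1, 193, 249 and 213 CPM, all above every lower dose. The resulting log2 fold change was 1.98 ± 0.53 at 0.5 mg/kg, which did not pass (edgeR adjusted p = 0.165), and 3.32 ± 0.54 at 5 mg/kg (edgeR adjusted p = 2.46e-05). The call at 0.5 mg/kg depended on single mice, since it was made without mouse 153, 154 or 351, with adjusted p down to 0.0622. It was also made on probes summed by gene (edgeR adjusted p = 0.0220). At 5 mg/kg the second Cd36 probe gave 5.15 ± 0.68 for males and 3.19 ± 0.62 for females, and both were called.

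The levels of Cd36 in counted molecules show the depth behind this. The 5 control males held 13 molecules together and the 5 males at 5 mg/kg 807, a ratio of 36.1 per molecule counted (95% exact interval 21.01 to 68.1). In females the sums were 51 and 381, a ratio of 9.52 (7.09 to 13.01). These intervals, and those given below for Slc27a1, Vldlr and Lpl, cover counting error only and not the spread between mice. The difference between the sexes at 5 mg/kg, female change minus male change, was -1.74 ± 0.71 in log2 and did not pass (edgeR adjusted p = 0.269). Control females and control males differed by 1.495 ± 0.52 in log2, with females higher, which did not pass either (edgeR adjusted p = 0.139). Without control female 152 this difference was 1.79 and was called (edgeR adjusted p = 0.0346).

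Kupffer cells and other macrophages also carry CD36. The summed level of the 8 Kupffer cell and macrophage markers was 49.0 to 109 CPM in control males and 46.6 to 68.2 CPM in males at 5 mg/kg, and edgeR called none of the 7 tested in either sex, while at an unadjusted p below 0.05 there were 2 in males and 0 in females, and DESeq2 called 1 and 0. The 6 markers of recruited macrophages summed to 36.4 to 54.1 CPM in control males and 40.6 to 116 CPM at 5 mg/kg, and 24.96 to 76.5 and 26.9 to 53.1 CPM in females, with 0 of the 4 tested called by edgeR and by DESeq2 in either sex and 1 in males and 2 in females at an unadjusted p below 0.05. Adipocytes express Cd36 and Lpl strongly. All 5 adipocyte markers were at 0 in every control male, their sum reached 1.37 CPM in males at 5 mg/kg, and Adipoq and Plin1 were at 0 in all males at that dose. In females the sum reached 3.12 CPM in controls, where Adipoq and Plin1 were at 0, and 1.54 CPM at 5 mg/kg, where both of these were above 0 in at least 1 mouse. The median sum was 0 CPM in both female groups, and the part of adipocytes in the levels of Cd36 and Lpl was not tested.

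Slc27a1, a fatty acid transporter best known from muscle and fat, was close to the limit of detection in controls and rose at 5 mg/kg in both sexes. Control males had 2.97, 5.79, 2.65, 0 and 0 CPM, and males at 5 mg/kg had 38.7, 48.4, 23.3, 9.66 and 18.6 CPM. Control females had 1.62, 4.46, 2.72, 3.58 and 0 CPM, and females at 5 mg/kg had 67.8, 34.1, 27.3, 39.1 and 38.7 CPM. No treated mouse overlapped with a control in either sex. The change in log2 was 3.60 ± 1.12 in males (edgeR adjusted p = 0.0379) and 4.06 ± 1.138 in females (edgeR adjusted p = 0.0329). The molecules behind it were 4 in the control males and 83 at 5 mg/kg, a ratio of 12.1 (95% exact interval 4.54 to 45.4), and 6 and 70 in females, a ratio of 14.9 (6.50 to 41.9). Leaving out mouse 402 ended the call in males (adjusted p = 0.102), and leaving out control male 102 moved the male change to 4.28.

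The other Slc27a1 probes had a like pattern. On probe 73000 no control mouse of either sex had a read, and all 5 males and all 5 females at 5 mg/kg did, with 1.83 to 16.7 CPM and 4.70 to 20.7 CPM. It was called in males (edgeR adjusted p = 0.0120) and in females (edgeR adjusted p = 0.0231). Probe 29146 rose from 3.58 ± 2.61 to 24.6 ± 13.1 CPM in mean level in males and from 3.40 ± 1.16 to 24.9 ± 12.8 CPM in females (SD, n = 5), without overlap, but was not called (edgeR adjusted p = 0.113 and 0.173). At 0.5 mg/kg Slc27a1 had 5.56 ± 1.86 CPM in males and 5.42 ± 5.92 CPM in females and was not called in either.

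Slc27a2, an acyl-CoA synthetase of very long-chain fatty acids and a main transporter of the liver, gave different answers on its 3 probes. The most counted probe, 30170, was not called in any of the 12 comparisons. Its control males had 808, 733, 1521, 1359 and 1702 CPM, and males at 5 mg/kg had 2949, 2508, 2501, 1325 and 2184 CPM. Control females had 1069, 2089, 1684, 1416 and 1648 CPM, and females at 5 mg/kg had 3411, 20.5, 3064, 3301 and 1784 CPM. The low value is that of mouse 452, with 288 reads where the other 4 females of its group had 19913 to 45340. The log2 fold change at 5 mg/kg was 0.90 ± 0.45 in males (edgeR adjusted p = 0.226) and 0.55 ± 0.45 in females (edgeR adjusted p = 0.793). Without mouse 452 the female change was 0.87 and was called (edgeR adjusted p = 0.0913).

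On the other probes mouse 452 was also the lowest of its group. On probe 69141 it had 367 CPM against 535.5 to 583 CPM in the other 4, a smaller distance than on probe 30170. Probe 65404 had 352, 240.3, 299.7, 358 and 380.2 CPM in females at 5 mg/kg and 110.4, 209, 162, 167.5 and 141 CPM in control females, without overlap. It rose by a log2 fold change of 1.05 ± 0.17 in females (edgeR adjusted p = 3.44e-05). In males it rose by 1.12 ± 0.17 at 0.5 mg/kg (edgeR adjusted p = 2.78e-05) and 1.17 ± 0.17 at 5 mg/kg (edgeR adjusted p = 1.80e-06). The male levels were 154 ± 32.7 CPM in controls, 334 ± 44.4 CPM at 0.5 mg/kg and 346 ± 34.9 CPM at 5 mg/kg (SD, n = 5), so the step between the upper doses was 0.05 ± 0.17 (edgeR adjusted p = 1). In females the step from 0.5 to 5 mg/kg was 0.71 ± 0.18 and passed (edgeR adjusted p = 0.0415).

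Probe 69141 rose in females at 5 mg/kg by 1.02 ± 0.17 (edgeR adjusted p = 2.87e-05) and did not pass in males, with 0.44 ± 0.17 (edgeR adjusted p = 0.122). Among controls it was lower in females than in males by 0.52 ± 0.17 in log2 (edgeR adjusted p = 0.0898), while probe 65404 differed between control females and males by 0.04 ± 0.17. Slc27a2 was thus called at 5 mg/kg in males on 1 of its 3 probes and in females on 2 of 3. Where on the transcript each probe binds is not given in the sources used here.

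**Figure D2:**
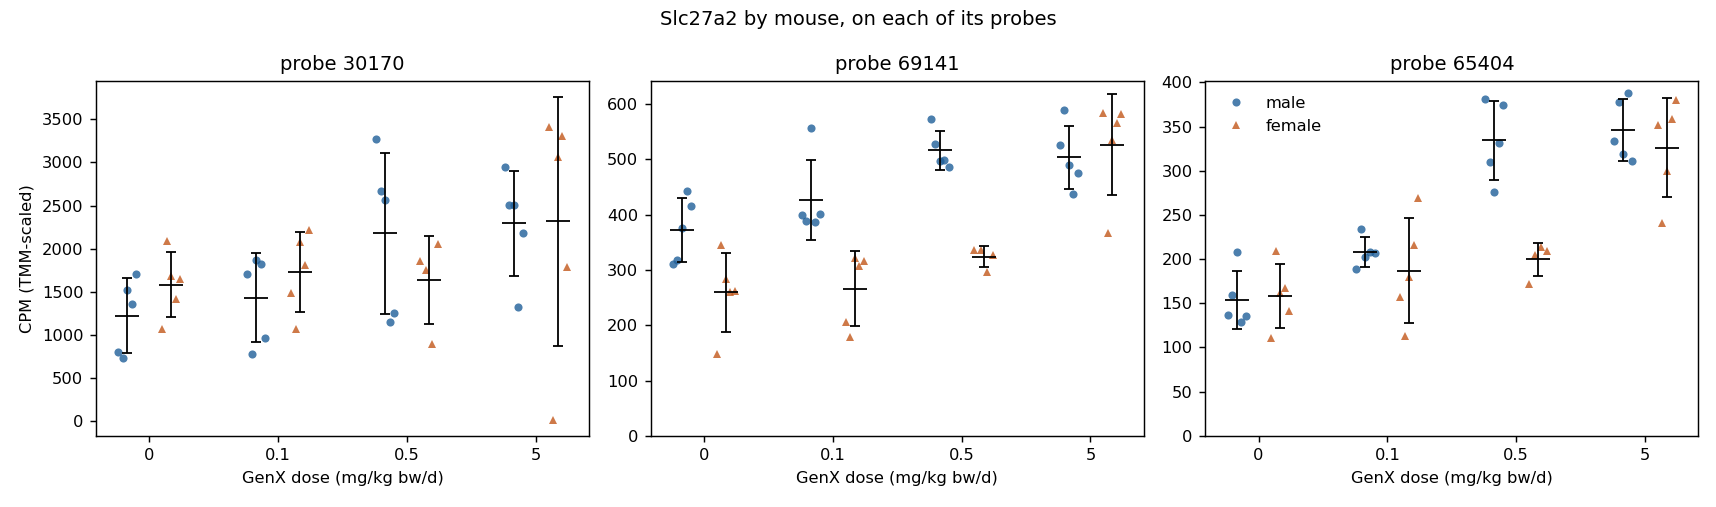
Slc27a2 by mouse on each of its 3 probes, as CPM after TMM scaling on linear axes of different scale, against GenX dose in mg/kg bw/d. Circles are males, triangles females, and bars the mean ± SD; mouse 452 lies at 20.5 CPM on probe 30170 and at 240.3 CPM on probe 65404.

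Slc27a4, a fatty acid transporter and acyl-CoA synthetase of many tissues, rose by a similar amount in both sexes at 5 mg/kg. Control males had 40.7, 47.2, 70.9, 72.9 and 74.7 CPM, and males at 5 mg/kg had 145, 86.9, 126, 113 and 135.5 CPM. Control females had 45.7, 57.8, 57.0, 62.0 and 53.6 CPM, and females at 5 mg/kg had 141, 169, 82.2, 84.9 and 94.7 CPM. In neither sex did a treated mouse overlap with a control, and the treated were higher. The log2 fold change was 0.98 ± 0.21 in males (edgeR adjusted p = 0.000925) and 1.05 ± 0.21 in females (edgeR adjusted p = 0.000872), and their difference, female change minus male change, was 0.06 ± 0.30 (edgeR adjusted p = 0.9999). In males the change lay between the upper doses, with 64.6 ± 10.8 CPM at 0.5 mg/kg and a step of 0.91 ± 0.21 to 5 mg/kg (edgeR adjusted p = 0.00740). In females at 0.5 mg/kg all 4 mice, at 68.7 to 107 CPM, lay above the controls, with a change of 0.52 ± 0.22 that did not pass (edgeR adjusted p = 0.485).

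Slc27a5 encodes the liver's bile acyl-CoA synthetase, which rejoins bile acids to coenzyme A and also takes up fatty acids, and it fell at 5 mg/kg. Control males had 908, 855, 785, 895 and 923 CPM, and males at 5 mg/kg had 507, 413, 530.0, 685 and 627 CPM. Control females had 893, 1282, 954, 759 and 814 CPM, and females at 5 mg/kg had 784, 426, 900.5, 646 and 639.5 CPM. The male groups did not overlap, whereas 3 of 5 treated females lay below every control female. The resulting log2 fold change was -0.66 ± 0.15 in males (edgeR adjusted p = 0.00220) and -0.47 ± 0.15 in females (edgeR adjusted p = 0.0919). The female call ended with DESeq2's size factors (adjusted p = 0.117), in a fit of the females alone (adjusted p = 0.181) and without any one of 6 of the 10 mice (151, 152, 153, 452, 454 or 455, adjusted p up to 0.318). In males the level stood at 886 ± 156 CPM at 0.5 mg/kg, and the step to 5 mg/kg was -0.68 ± 0.15 (edgeR adjusted p = 0.00462).

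Markers of hepatocytes fell at the same dose. At 5 mg/kg, 5 of the 6 in the table fell in males and 4 in females. Over all genes 3.75% were called lower in males at this dose and 2% in females. Among the markers that fell was Hnf4a, a hepatocyte transcription factor, by -0.80 ± 0.16 in males (edgeR adjusted p = 0.000497) and -0.56 ± 0.16 in females (edgeR adjusted p = 0.0439). The summed level of the hepatocyte markers was 10220 to 13450 CPM in control males and 5404 to 6914 CPM at 5 mg/kg, and 10830 to 15080 and 7852 to 12430 CPM in females. In these bulk samples fewer cells of a type and less RNA per cell cannot be told apart, and the part of this in the falls of Slc27a5 and Lipc was not tested. The summed endothelial cell markers ran from 181 to 230.5 CPM in control males and 126 to 200 CPM at 5 mg/kg, and 1 of the 6, Clec4g, fell. Of the 6 stellate cell markers 1, Col1a1, rose in males at 5 mg/kg, where 5.58% of all genes were called higher. The sum of the stellate cell markers ran from 76.9 to 137.5 CPM in control males and 128 to 151 CPM at that dose.

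**Figure D3:**
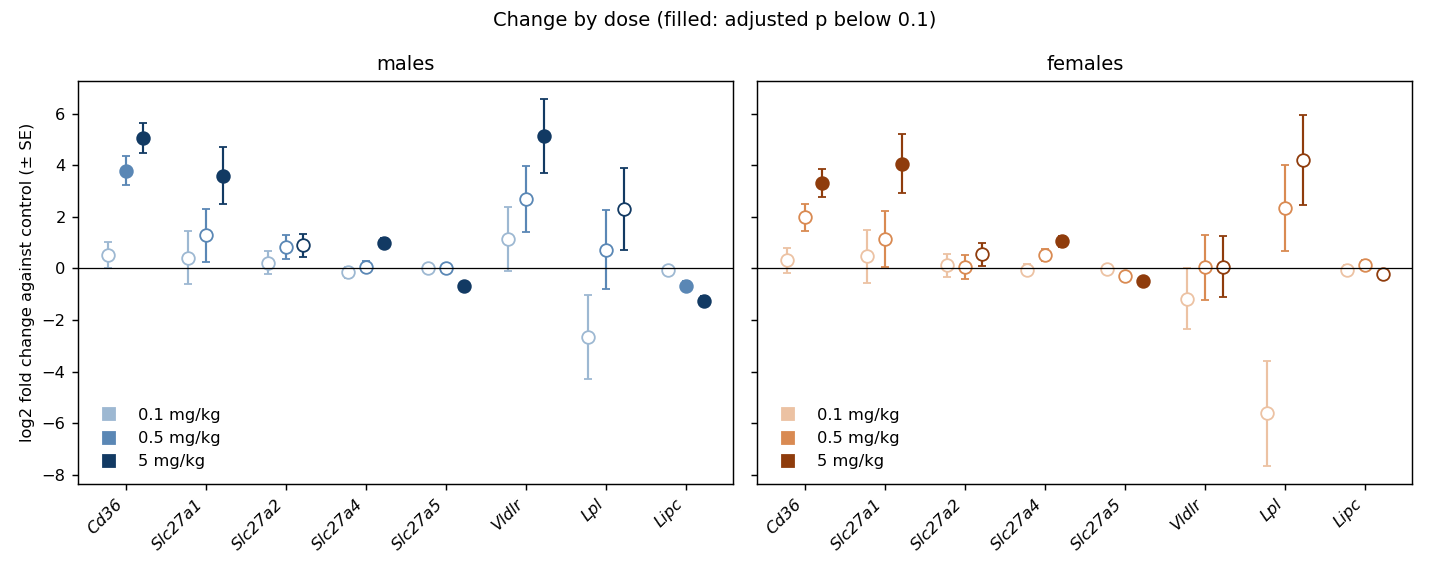
Log2 fold change of each gene against the control mice of its sex, with bars of 1 SE from the edgeR fit, for 3 doses in males and females on the most counted probe. Filled symbols have an adjusted p below 0.1 and open symbols do not; Cd36 has filled symbols at 0.5 and 5 mg/kg in males, while Vldlr and Lipc are filled in males and open in females.

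Vldlr, the receptor for very low-density lipoprotein, rose in males at 5 mg/kg and stayed near its control level in females. Among control males mouse 102 had 35 reads, about 1 molecule, and the other 4 had 0. Males at 5 mg/kg had 31.96, 25.1, 12.7, 10.1 and 25.6 CPM, all above the highest control at 2.98 CPM. Control females had 14.7, 11.4, 10.3, 12 and 6.45 CPM, and females at 5 mg/kg had 8.95, 10.4, 12.3, 11.6 and 14.1 CPM, which overlap throughout. The log2 fold change at 5 mg/kg was 5.13 ± 1.42 in males (edgeR adjusted p = 0.0149) and 0.06 ± 1.18 in females (edgeR adjusted p = 1). Without mouse 102 no control male had a read, and the fitted male change was 11.1, which is not a measured size. In molecules the sums were 1 and 65, a ratio of 37.8 with a 95% exact interval of 6.55 to 1517, against 23 and 20 in females, a ratio of 1.11 (0.577 to 2.11).

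The difference in the Vldlr change between the sexes at 5 mg/kg was -5.07 ± 1.78 in log2 and did not pass on reads (edgeR adjusted p = 0.146). It passed with counts in molecules (-4.46, edgeR adjusted p = 0.00778) and without the filter on low counts (adjusted p = 0.0354). It also passed without mouse 102 (adjusted p = 0.00570), but that fit leaves no read in control males and adds no support. Among controls Vldlr was higher in females than in males by 4.19 ± 1.36 in log2, without overlap (edgeR adjusted p = 0.0986). On most counted probes, Vldlr was the only one of the 8 genes called between control females and males. Over all genes 3.89% were called there. Other probes called were Lipc probe 30307 (edgeR adjusted p = 4.05e-05) and Slc27a2 probe 69141 (edgeR adjusted p = 0.0898). The Vldlr call ended with DESeq2's size factors (adjusted p = 0.108) and with mouse 355 kept (adjusted p = 0.253). It also ended without any one of 9 of the 10 control mice, all but mouse 102 (adjusted p up to 0.208). Males at 5 mg/kg, at 10.1 to 31.96 CPM, overlapped with control females. At the lower doses males had 1.32 ± 1.47 CPM at 0.1 mg/kg and 3.88 ± 3.68 CPM at 0.5 mg/kg (SD, n = 5). The change at 0.5 mg/kg did not pass (edgeR adjusted p = 0.260). The fit without mouse 102 passed (edgeR adjusted p = 0.00963), again against control males with no read. The second probe, 78405, had at most 3 molecules in any group and says little.

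Lpl, whose product frees fatty acids from circulating triglycerides, had few reads and was not called by edgeR in any of the 12 comparisons. Control males had 0, 0, 14.8, 3.25 and 0 CPM, and males at 5 mg/kg had 19.5, 29.6, 10.98, 11.2 and 18.3 CPM. Control females had 0, 0, 0.741, 1.51 and 0 CPM, and females at 5 mg/kg had 13.1, 7.63, 3.35, 8.56 and 9.23 CPM. All 5 mice at 5 mg/kg in each sex had reads, against 2 of 5 controls in each sex; the female groups did not overlap, and the male groups overlapped through control mouse 103. The change in log2 was 2.31 ± 1.59 in males (edgeR adjusted p = 0.499) and 4.19 ± 1.74 in females (edgeR adjusted p = 0.258). Leaving out control male 103 moved the male change to 4.44, and leaving out control female 154 moved the female change to 5.44, neither of which was called. On counts in molecules both were called (edgeR adjusted p = 0.00998 and 0.0258). The molecules were 6 and 55 in males, a ratio of 5.33 per molecule counted (95% exact interval 2.30 to 15.2), and 1 and 14 in females, a ratio of 17.8 (2.71 to 754). These intervals cover counting error only, not the spread between mice, and 5 of the 6 molecules of control males came from mouse 103. The other Lpl probe, 31494, had at most 2 molecules in any group.

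Lipc, the hepatic lipase gene, fell with dose in males on its most counted probe, 67465. Control males had 158, 129, 133, 119 and 113 CPM. Males at 0.5 mg/kg had 96.5, 83.2, 87.5, 60.6 and 76.3 CPM, and males at 5 mg/kg had 61.3, 57.1, 32.5, 78.3 and 41.2 CPM. All males at both doses lay below all control males. The log2 fold change was -0.69 ± 0.19 at 0.5 mg/kg (edgeR adjusted p = 0.0437) and -1.27 ± 0.19 at 5 mg/kg (edgeR adjusted p = 2.51e-06). The call at 0.5 mg/kg ended without mouse 101, 304 or 305, with adjusted p up to 0.153, and with mouse 355 kept (adjusted p = 0.327).

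In females probe 67465 of Lipc changed little. Control females had 143, 119.7, 99.2, 89.1 and 119 CPM and females at 5 mg/kg had 102, 73.0, 112, 88.0 and 113 CPM, a change of -0.23 ± 0.19 (edgeR adjusted p = 0.809). The difference between the sexes at 5 mg/kg was 1.04 ± 0.27 in log2, female change minus male change (edgeR adjusted p = 0.0485). Lipc was the only one of the 8 genes called between the sexes at 5 mg/kg, where 1.19% of all genes were called. The call ended without any one of 5 of the 20 mice (154, 403, 405, 453 or 455), with adjusted p up to 0.115, and with mouse 355 kept (adjusted p = 0.313). The other sex differences had no call among the 8 genes: at 0.5 mg/kg edgeR called 0.322% of all genes, and 2 of the 8 had an unadjusted p below 0.05 and DESeq2 called 1; at 0.1 mg/kg edgeR called 0% of all genes, and 0 of the 8 had an unadjusted p below 0.05 and DESeq2 called 1.

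The second Lipc probe, 30307, did not fall. It had 62.2 ± 10.3 CPM in control males and 65.9 ± 11.7 CPM in males at 5 mg/kg (SD, n = 5), a change of 0.08 ± 0.17 (edgeR adjusted p = 1). It separated the sexes instead: control females had 118, 99.9, 166, 159 and 103 CPM against 77.5, 64.2, 63.8, 54.2 and 51.2 CPM in control males, a difference of 1.05 ± 0.17 in log2 (edgeR adjusted p = 4.05e-05). On probe 67465 control females and males differed by -0.19 ± 0.19 (edgeR adjusted p = 0.863). The direction of Lipc in males at 5 mg/kg thus depended on the probe, with -1.27 on one and 0.08 on the other. RefSeq lists 2 starts for Lipc, and which transcripts each probe reads is not given in the sources used here.

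**Figure D4:**
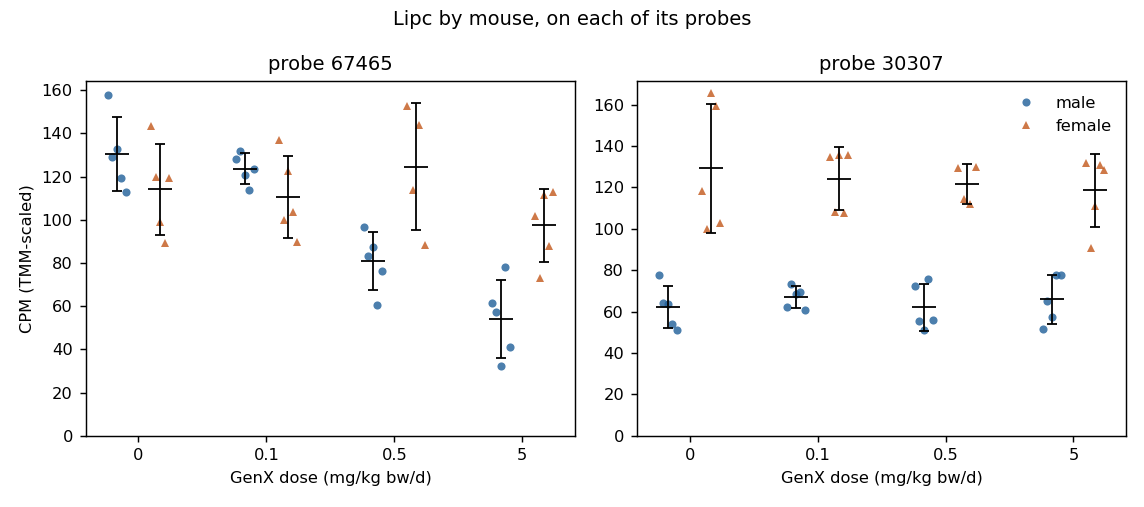
Lipc by mouse on each of its probes, as CPM after TMM scaling on linear axes from 0, against GenX dose in mg/kg bw/d. Circles are males, triangles females, and bars the mean ± SD; on probe 67465 males fall from 130.4 to 54.1 CPM in mean level, and on probe 30307 males stay at 62.0 to 66.9 CPM while females lie at 119 to 129 CPM.

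Between 0.5 and 5 mg/kg, 2 of the 8 genes changed in males, Slc27a4 upward and Slc27a5 downward, where 3.01% of all genes were called. In males 5 of the 8 had an unadjusted p below 0.05. Both calls ended with mouse 355 kept (edgeR adjusted p = 0.313 and 0.382). Lipc, at -0.58 on probe 67465 and not called (edgeR adjusted p = 0.123), was called without mouse 304 or 404 (edgeR adjusted p down to 0.0224). With probes summed by gene or with counts in molecules, more of the 8 were called in both sexes. The share of all genes called in these fits is not given here. In females edgeR called 0 of the 8 between these doses and 1.38% of all genes. There, 3 of the 8 had an unadjusted p below 0.05, and DESeq2 called 0.

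Of the genes around this group, some of the long-chain acyl-CoA synthetases, which trap fatty acids in the cell as acyl-CoA, rose in both sexes. At 5 mg/kg 2 of the 4 tested rose in males and in females and none fell. Over all genes 5.58% were called higher in males at this dose and 2.09% in females. The median log2 fold change over the 4 was 1.51 in males and 0.81 in females. Acsl1 went from 2060 ± 209 to 5051 ± 631 CPM in males, a log2 fold change of 1.29 ± 0.11 (edgeR adjusted p = 9.98e-13), and from 1439 ± 154 to 3638 ± 429 CPM in females, a change of 1.34 ± 0.11 (edgeR adjusted p = 5.34e-13). Acsl5 rose by 1.68 ± 0.23 in males (edgeR adjusted p = 2.37e-07) and 1.09 ± 0.22 in females (edgeR adjusted p = 0.00115). At 0.5 mg/kg Acsl1 was also higher, by 0.999 ± 0.11 in males (edgeR adjusted p = 8.97e-09) and 0.66 ± 0.12 in females (edgeR adjusted p = 0.00105).

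Among 10 genes of LPL maturation and regulation, 2 fell and none rose in males at 5 mg/kg, and 1 fell and none rose in females. Over all genes 3.75% were called lower in males at this dose and 2% in females. DESeq2 called 4 of the 10 in males and 2 in females, in either direction. The shares above are those of edgeR, and the share of all genes called by DESeq2 is not given here. Apoc3, an inhibitor of LPL, fell by -0.51 ± 0.11 in males (edgeR adjusted p = 0.000632) and -0.71 ± 0.11 in females (edgeR adjusted p = 4.91e-06). Apoa5, an activator of triglyceride hydrolysis, fell by -0.67 ± 0.18 in males (edgeR adjusted p = 0.00931). Of the related receptors and lipases, 8 of 9 were tested, and 2 fell in males and 1 in females. Scarb1, the receptor for high-density lipoprotein, fell by -1.29 ± 0.26 in males (edgeR adjusted p = 0.000380) and -0.90 ± 0.26 in females (edgeR adjusted p = 0.0398), and Lrp1, a receptor for lipoprotein remnants, fell by -1.03 ± 0.15 in males (edgeR adjusted p = 1.11e-06). None of the 8 surface partners and genes of receptor turnover was called by edgeR in either sex at 5 mg/kg. No gene of this list had an unadjusted p below 0.05 in males and 1, Got2, had in females, where DESeq2 called 1.

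The genes whose profile over the 8 groups was nearest to that of each called gene were found as the Euclidean distance between centred group means of log2 CPM, a description with no test. Nearest to Cd36, which spanned 5.73 log2 units, were Cyp4a10, a fatty acid omega-hydroxylase, at 0.945, Abcc4 at 1.73 and Cyp4a31 at 1.92. Nearest to Slc27a1 were Acot1, an acyl-CoA thioesterase, at 1.25, Cyp4a31 at 1.505 and Ehhadh, a peroxisomal beta-oxidation enzyme, at 1.52. For Slc27a4, which spanned 1.16 units, they included Psmd4, a proteasome subunit, at 0.356 and Hmgb3 at 0.423. For Slc27a5, which spanned 0.77 units, they were Emg1 at 0.221, Lman1 at 0.251 and Sqor at 0.256. Nearest to Vldlr, which spanned 6.13 units, was Slc9a7 at 2.169, with Abcd2, a peroxisomal fatty acid transporter, at 2.49. A distance grows with a gene's own span, so distances are not to be compared between genes. For Lipc they included Ndrg2 at 0.345 and Masp2 at 0.352.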

How the data were processed

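Livers of 40 mice, 5 in each of 8 groups of sex and GenX dose, were measured with TempO-Seq. The authors deposited raw counts of reads on each of 30146 probes, not normalized. The submitters' processing notes name bcl2fastq 2.17.1.14, Bowtie and the mm10 build. Groups came from the sample labels. As in the study, a library with a read total more than 2 SD below the mean (mouse 355) was left out, leaving 39 libraries with 10341341 to 15562253 reads. Estimated molecules are the counts divided by the first peak of a library's count histogram.

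Counts were tested in R 4.3.3 with edgeR 4.0.16 (TMM, default filter on low counts, 1 dispersion over 8 groups, quasi-likelihood F-test, no covariates). Two-sided p-values were adjusted by Benjamini-Hochberg over 17877 probes, with a threshold of 10%. The study used DESeq2, which was run here (1.42.0) as an alternative. Shares of all genes called are those of the main edgeR fit and are not given for the alternatives. The SE is the log2 fold change divided by the square root of F. Mice are separate animals, and animal numbers pair no samples. Both tools were run on simulated data in which only probes with many reads were changed. That run does not cover genes at a few molecules, such as Vldlr, Lpl and Slc27a1 in controls.

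The 8 genes and the lists of pathway and marker genes were chosen with earlier results of these data known. All 8 genes are named on their most counted probe. Genes of 4 pathway lists are named when called at 5 mg/kg in either sex, at most the 3 with the smallest p per list, and others were named after their values were seen (Got2, Hnf4a, Clec4g, Col1a1, Adipoq, Plin1). For each called member, the 3 nearest profiles of group mean log2 CPM (prior count 2) are named, except genes that are not reported here. Alternatives were DESeq2, DESeq2's size factors, no filter, all 40 libraries, a fit per sex, summed probes, molecules, other probes, a prior count of 0.5, and leaving out each mouse.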

Additional observations from a re-analysis of the deposited data

Results flagged for a closer look

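Each group of 4 or 5 mice was searched for a mouse whose gap to its nearest neighbour took up most of the group's range in log2 CPM, on the most counted probe. Of 64 groups, 8 had such a mouse. About 1 in 20 groups of normally distributed values would pass the cutoff. That rate does not hold for groups at the limit of detection, so the 8 were not set against chance. For Slc27a2, mouse 452 among females at 5 mg/kg had a gap of 0.873 of the range, at 20.5 CPM against 1784 to 3411 CPM in the other 4. For Slc27a4 the gap was 0.9185 for mouse 354 among females at 0.5 mg/kg, which lay high at 107 CPM against 68.7 to 71.2 CPM, and 0.733 for mouse 305 among males at 0.5 mg/kg, which lay low at 46.2 CPM. For Cd36 it was 0.833 for control male 105, with 2 reads. The other 4 flags concern mice of groups at the limit of detection: for Slc27a1 the gap was 0.719 for control female 155 and 0.746 for male 203 at 0.1 mg/kg, both at 0 reads, and the gap was 1, the whole range, for Vldlr in control male 102 with 35 reads and for Lpl in male 202 at 0.1 mg/kg with 38 reads. Their causes were not tested.

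The change of Lipc on probe 67465 at 5 mg/kg differed between the sexes by 1.04 in log2, female change minus male change (edgeR adjusted p = 0.0485), and this difference was -0.21 on probe 30307 (edgeR adjusted p = 0.9999).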

How the results depend on the processing

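At 5 mg/kg the number of the 8 genes called in males was 5 to 6 when a mouse was left out (6 reported) and 4 with all 40 libraries, and in females (4 reported) it was 3 to 4 when a mouse was left out and 1 with all 40 libraries. With all 40 libraries, mouse 355 included, it also went to 1 in males at 0.5 mg/kg (2 reported), 0 between 0.5 and 5 mg/kg in males (2 reported), 0 between the sexes at 5 mg/kg and 0 between control females and males (1 reported for each). DESeq2 gave 1 in females at 0.1 mg/kg, 1 between the sexes at 0.1 mg/kg and 1 at 0.5 mg/kg, where 0 were reported, and its size factors in edgeR gave 0 between control females and males. Without the filter on low counts the number was 1 in females at 0.5 mg/kg, 2 between 0.5 and 5 mg/kg in females, 1 between the sexes at 0.5 mg/kg and 3 at 5 mg/kg, and 2 between control females and males. Summing probes gave 1 in females at 0.5 mg/kg, 4 and 2 between the upper doses in males and females, 0 between the sexes at 5 mg/kg and 2 between control females and males. Counting molecules gave 1, 7, 2, 2 and 2 for these same comparisons. The share of all genes called is not given for these alternative fits, so their counts have no background to be read against. Leaving out a mouse gave 1 to 3 in males at 0.5 mg/kg, 0 to 1 in females at 0.5 mg/kg, 0 to 2 between the sexes at 5 mg/kg and 0 to 1 between control females and males. Between 0.5 and 5 mg/kg in males, Lipc became called without mouse 304 or 404. The causes were not tested.

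Of 365 alternative values for 37 changes of single genes, 304 kept their direction and their side of the threshold, 23 were no longer called, 20 became called and 18 turned in sign. Leaving out a mouse entered these values only by the fits with the lowest and the highest fold change of each result. A call lost without another mouse, such as that of Slc27a1 in males at 5 mg/kg without mouse 402, is therefore not among the 23. The called changes that turned were those of Lipc on probe 30307, to 0.083 in males at 5 mg/kg and to -0.206 between the sexes at 5 mg/kg. The others that turned had not been called. In males at 0.5 mg/kg, leaving out a mouse gave -0.042 to 0.174 for Slc27a4 and -0.061 to 0.099 for Slc27a5, and Slc27a5 was -0.036 with DESeq2 and with its size factors. In females at 0.5 mg/kg, Slc27a1 was -1.216 on probe 29146, Slc27a2 was -0.17 with all 40 libraries and -0.074 to 0.254 without a mouse, and Lipc was -0.148 with all 40 libraries and -0.088 on probe 30307. Vldlr in females at 0.5 mg/kg was -0.292 with all 40 libraries, -0.105 with summed probes, -0.104 to 0.166 without a mouse and -6.88 on probe 78405, and at 5 mg/kg it was -0.084 with summed probes, -0.08 to 0.19 without a mouse and -6.88 on that probe. Of the 18 nearest profiles, 16 stayed among the nearest with a prior count of 0.5. No paired analysis was possible because animal numbers are not shared between groups. Depth limits the folds of Vldlr, Lpl and Slc27a1, whose control groups held 1 to 23 molecules each, and of Cd36, with 13 in control males and 51 in control females.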

Other observations

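The ratio of the probes of one gene within a mouse does not depend on how libraries are scaled. It is given without a test, since the pairs, Lipc probe 67465 over 30307 and Slc27a2 probe 65404 over 69141, were chosen after their values had been seen. For Lipc the mean log2 ratio was 1.07 ± 0.06 in control males, and with rising dose it was 0.89 ± 0.14, 0.38 ± 0.42 and -0.33 ± 0.51 in the treated males (SD, n = 5). It lay at -0.17 ± 0.57 in control females and -0.29 ± 0.22 in females at 5 mg/kg. Males at 0.5 mg/kg and at 5 mg/kg did not overlap with control males, nor did control females. In females the change at 5 mg/kg was -0.12, and the groups overlapped.

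For Slc27a2 the mean log2 ratio was -1.29 ± 0.40 in control males, -0.64 ± 0.19 at 0.5 mg/kg and -0.54 ± 0.20 at 5 mg/kg (SD, n = 5). Males at 5 mg/kg did not overlap with control males, and males at 0.5 mg/kg did. In females the ratio was -0.70 ± 0.18 in controls and -0.69 ± 0.10 at 5 mg/kg, a change of 0.01. What the probes read was not tested.

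Markers of further cell types gave no call by edgeR or DESeq2 at 5 mg/kg in either sex, with 2 of 4 bile duct cell markers, 3 of 4 lymphocyte markers and 2 of 4 skeletal muscle markers tested. At an unadjusted p below 0.05 there were 0 bile duct and 0 skeletal muscle markers in either sex, and 1 lymphocyte marker in males and 2 in females.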
